A study of Homo sapiens with 28 samples.

Results

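The HOX clusters are 4 runs of homeobox genes, here the 38 genes HOXA2 to HOXA13, HOXB1 to HOXB13, HOXC4 to HOXC13 and HOXD1 to HOXD13 (10 in HOXA, 10 in HOXB, 9 in HOXC and 9 in HOXD). They were followed through 16 ChIP-seq peak lists by position: a peak belonged to a cluster when it overlapped by at least 1 bp a window set in hg19 coordinates. The windows were chromosome 7, 27130000 to 27250000 (HOXA, 120 kb), chromosome 17, 46605000 to 46810000 (HOXB, 205 kb), chromosome 12, 54330000 to 54450000 (HOXC, 120 kb) and chromosome 2, 176940000 to 177056000 (HOXD, 116 kb). They held 256 of the 317841 peaks in all lists: 239 of H3K27me3, 12 of H3K4me3, 5 of H3K4me1 and 0 of H3K27ac.

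The cells were human embryonic stem cells with the Fucci system, a set of fluorescent reporters that rise and fall as a cell passes through its cycle. They were kept without serum or feeder cells in a defined medium with Heregulin b1, Activin A, Longr3 IGF-1 and FGF2, and were sorted into an early G1 fraction (labelled DN), a late G1 fraction (KO2), an S fraction (AzL) and a G2/M fraction (AzH). Each of the 4 histone marks had 1 library per fraction, and 4C-seq, which counts the restriction fragments ligated to a chosen viewpoint, had 1 library per fraction from each of 2 viewpoints, GATA6 and SOX17. With 1 library per group there was no replicate and no test between fractions, so all differences below are descriptions of these libraries. The 4 input libraries were not analysed here.

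HOX genes encode homeodomain transcription factors that give cells their position along the head-to-tail axis, and within each cluster the genes lie in the order in which they are used along that axis. In embryonic stem cells they are textbook targets of Polycomb: Polycomb repressive complex 2 places H3K27me3 over whole clusters. H3K4me3 marks promoters, and a promoter that carries both is termed bivalent. Enhancers carry H3K4me1, and H3K27ac is found at enhancers and promoters in use.

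Promoter sequences of members are shown because Polycomb in mammals is known to gather at CpG-rich DNA. RefSeq promoter entries of GRCh38.p14 matched 20 of the 38 members (9 in HOXA, 1 in HOXB, 2 in HOXC, 8 in HOXD) by symbol, with 27 entries of which 26 differ. In the 250 bases upstream of the start, the dinucleotide CG, which reads the same on both strands, occurred 0 to 40 times in these 26 entries, with a median of 19.5, beside a median of 11 over all 35116 entries. At least 1 CG was present in 25 of the 26 and in 93.9% of all entries. The entries were not spread evenly over members: HOXA3 gave 7 of them, with the 0 CG entry among these, and HOXA10 gave 2. The 4 printed below are the entry shared by HOXC4 and HOXC5, whose window was wholly covered by H3K27me3, the member entry with the most CG (HOXA13), the one with the fewest among members with a single entry (HOXD4), and the only match in HOXB (HOXB1). Each is the 250 upstream bases, 5′ to 3′ on the gene's strand, with CG in capitals. The build differs from that of the peaks, so no peak was placed on these bases.
HOXC4 and HOXC5 (chr12:54016638-54016887, plus strand, 14 CG): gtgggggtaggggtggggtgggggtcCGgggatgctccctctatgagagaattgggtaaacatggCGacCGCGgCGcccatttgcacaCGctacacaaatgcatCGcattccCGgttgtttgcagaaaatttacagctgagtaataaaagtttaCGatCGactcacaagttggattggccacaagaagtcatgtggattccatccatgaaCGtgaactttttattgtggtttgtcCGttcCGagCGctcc
HOXA13 (chr7:27200092-27200341, minus strand, 40 CG): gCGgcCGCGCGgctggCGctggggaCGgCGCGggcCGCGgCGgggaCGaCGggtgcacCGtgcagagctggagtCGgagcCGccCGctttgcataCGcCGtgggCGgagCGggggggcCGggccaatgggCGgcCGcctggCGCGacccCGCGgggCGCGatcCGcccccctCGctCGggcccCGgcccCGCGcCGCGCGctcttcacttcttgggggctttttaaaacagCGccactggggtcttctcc
HOXD4 (chr2:176151300-176151549, plus strand, 4 CG): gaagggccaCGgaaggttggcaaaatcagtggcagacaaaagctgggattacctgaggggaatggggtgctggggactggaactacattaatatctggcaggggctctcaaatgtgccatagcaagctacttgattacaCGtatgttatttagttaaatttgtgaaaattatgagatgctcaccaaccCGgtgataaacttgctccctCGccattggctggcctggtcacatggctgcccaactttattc
HOXB1 (chr17:48531012-48531261, minus strand, 7 CG): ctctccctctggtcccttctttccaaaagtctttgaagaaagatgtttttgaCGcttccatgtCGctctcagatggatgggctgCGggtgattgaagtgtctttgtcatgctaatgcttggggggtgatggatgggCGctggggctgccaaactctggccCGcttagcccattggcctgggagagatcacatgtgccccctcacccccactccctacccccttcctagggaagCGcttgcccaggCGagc
The HOXA13 sequence was above the median of all entries, HOXD4 was below it, and HOXB1, at the start of its cluster in gene order, was below it as well.

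H3K27me3 lay over nearly all of HOXA, HOXC and HOXD in every fraction. Values for the fractions are given below from early G1 through late G1 and S to G2/M. Peaks covered 117.925, 117.875, 116.25 and 117.25 kb of HOXA. HOXC was covered in full, 120 kb, in all 4 fractions, and HOXD over 114.95, 115.25, 109.525 and 115.275 kb. HOXB was the exception, with 143.6, 165.8, 131.25 and 145.3 kb, or 70.0%, 80.9%, 64.0% and 70.9% of its window. Summed over the clusters, coverage was 496.475, 518.925, 477.025 and 497.825 kb of 561 kb (88.5%, 92.5%, 85.0% and 88.7%). S was lowest and late G1 highest. That order turned when only peaks wholly inside a window were kept, with 338.35, 310.525, 329.55 and 338.3 kb, late G1 then being lowest. As reported, late G1 and S differed by 41.9 kb, of which HOXB held 34.55 kb, HOXD 5.725 kb and HOXA 1.625 kb. The bases covered in all 4 fractions made up 475.1 kb, 84.7% of the windows, with 96.7% of HOXA, 63.3% of HOXB, 100% of HOXC and 94.2% of HOXD. Bases covered in no fraction came to 37.275 kb, and 35.325 kb of these lay in HOXB.

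**Figure D1:**
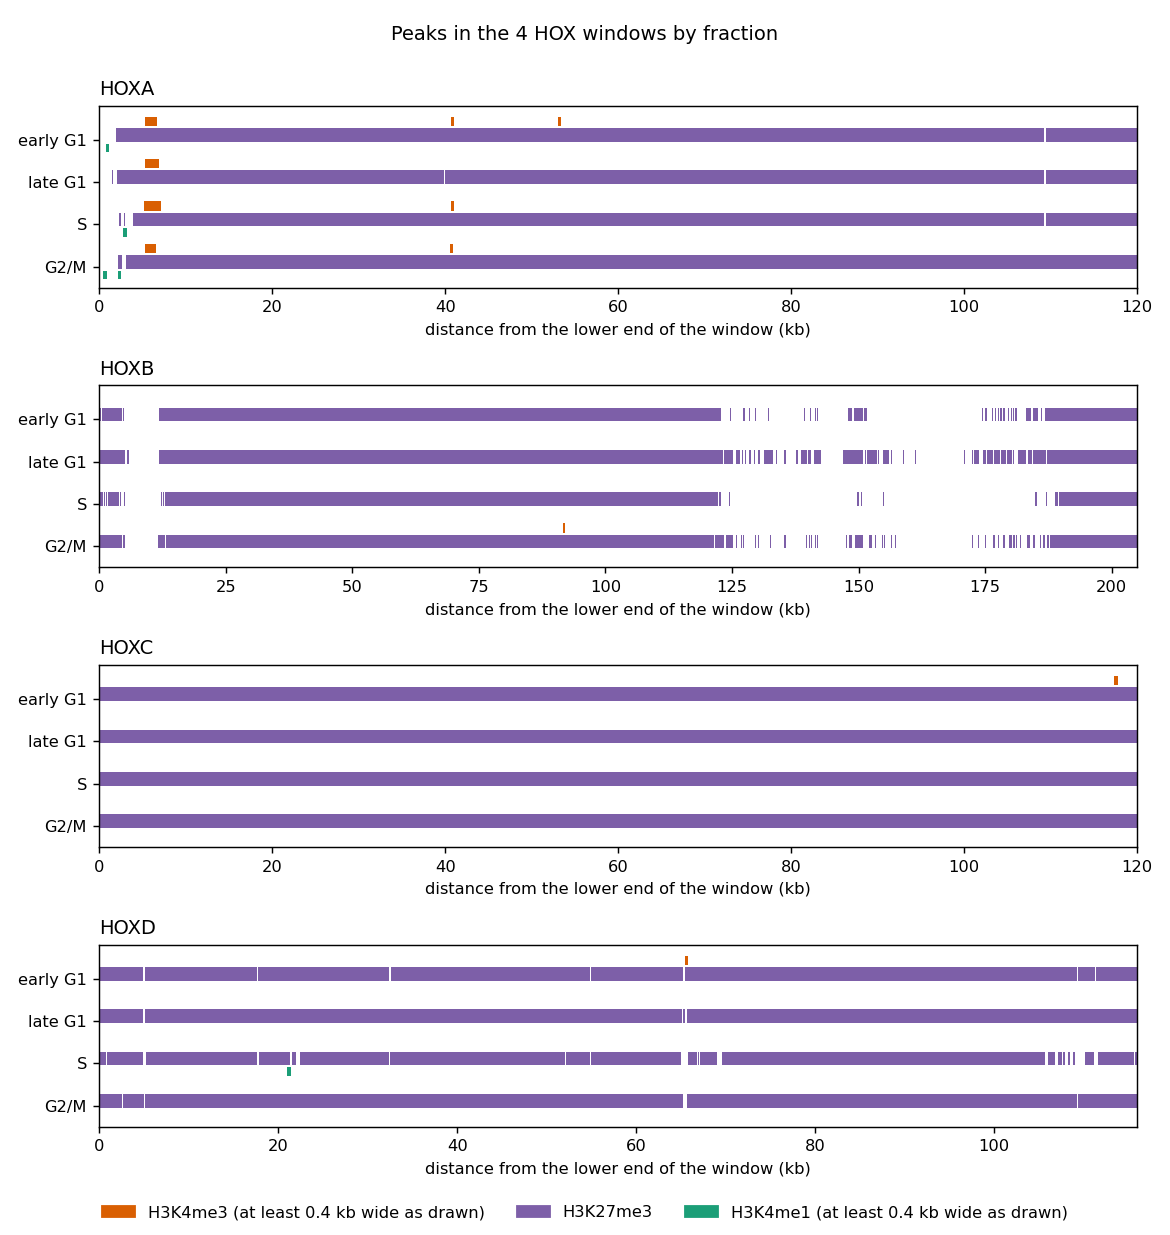
Peaks in the 4 windows, 1 row per sorted fraction, against distance in kb from the lower-coordinate end of the window; purple bars are H3K27me3 peaks, orange ticks H3K4me3 and green ticks H3K4me1, with the short ticks drawn at least 0.4 kb wide. HOXC is 1 unbroken bar in each fraction, and HOXB shows a stretch between 2 long bars that is filled to different extents in the 4 fractions.

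The clusters changed less from fraction to fraction than the H3K27me3 lists as a whole. From early to late G1, the covered length in the clusters was 1.05 times, and that of the list outside them 1.19 times. From late G1 to S the clusters stood at 0.919 times and the rest of the list at 0.530 times, and from S to G2/M at 1.04 and 1.42 times. Coverage in the clusters cannot exceed the 561 kb of the windows. With 496.475 kb already covered in early G1 and 477.025 kb in S, rises as large as those of the list were not possible. Of the steps above, only the fall from late G1 to S was free of this limit. From G2/M to early G1 the clusters stood at 0.997 times and the rest of the list at 1.12 times, a rise that the windows had room for. The clusters made up 1.84%, 1.62%, 2.78% and 2.05% of all H3K27me3 length, most in S. The smaller fall from late G1 to S was also seen region by region. Overlapping peaks of the 4 fractions were merged, and 1274 merged regions of at least 5 kb on chromosomes 1 to 21 were listed in every fraction, 8 of them in the HOX clusters. The length covered in S was below that in late G1 by over 1.5 times in 0 of the 8, against 39.2% of the 1274. The S to late G1 ratio of the 8 had a median of 0.945 (range 0.716 to 0.987), and that of the 1266 others a median of 0.717. The HOX regions were far longer (median 80.3 kb against 7.79 kb). Among regions of at least 20 kb, a length chosen after the data were seen, the ratio was 0.961 for the 5 in HOX and 0.874 for the 148 others, of which 11.5% were lower by over 1.5 times. At this cut the HOX regions were still longer (median 111.7 kb against 26.475 kb). How length bears on the difference was not tested beyond this. The lowest HOX ratio, 0.716, belonged to a 7775 bp region at the lower end of HOXB. Read depth of the ChIP libraries is unknown here, and its part in the list lengths was not tested.

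**Figure D2:**
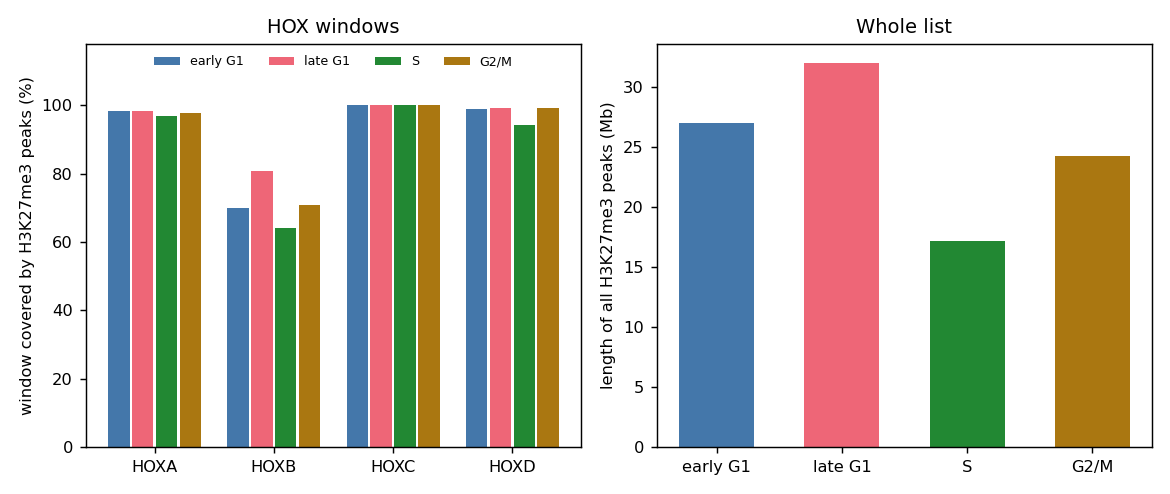
Left, percent of each HOX window covered by H3K27me3 peaks in the 4 fractions; right, summed length in Mb of all H3K27me3 peaks in the same lists. The right bars fall from late G1 to S to 0.536 times, while HOXA, HOXC and HOXD on the left stay above 94%.

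HOXC was held by a single H3K27me3 peak in each fraction, 140.925, 145.125, 130.775 and 142.025 kb long, which in every fraction was the longest of the list on chromosomes 1 to 21. The windows' genes HOXC4 to HOXC13, which pattern the trunk and limbs, lay inside it whatever their exact place. Its start and end in early G1 were 54316226 and 54457150, and it reached past the window on both sides in all fractions. In S it started 4.55 kb below the window, against 13.775, 14.4 and 13.525 kb in the early G1, late G1 and G2/M lists, and its upper end lay 7.15, 10.725, 6.225 and 8.5 kb beyond the window. The S peak thus reached least far at both ends, of which the lower is the side of HOXC13 in gene order.

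In HOXA, which patterns among others the limb and the reproductive tract, the longest peak was 107.375, 69.225, 101.95 and 106.2 kb. Long coverage began 1.925, 2, 3.925 and 3.125 kb into the window. In late G1 the long peak was split by a gap of 125 bp about 40 kb into the window, which accounts for the shorter length without a change of covered length. A gap at 27239326 to 27239375 was open in all fractions (150, 200, 225 and 50 bp), and the domain went on beyond it to 4.875 to 7.3 kb past the window. HOXD, known for patterning limbs and digits, was cut into shorter peaks, the longest 40.025, 59.775, 33.225 and 60.15 kb. A gap at 176944951 to 176945125 was open in every fraction, 225, 275, 325 and 175 bp wide. Peaks of 50 kb or more were few in these lists: 4, 10, 4 and 6 on chromosomes 1 to 21, of which 3, 6, 3 and 4 overlapped HOX windows.

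Breaks, counted as gaps of at least 500 bp between H3K27me3 peaks inside a window, numbered 19, 17, 13 and 29, and lay almost wholly in HOXB, with 19, 16, 9 and 28. HOXC had 0 in every fraction. HOXA had 0, 1, 1 and 1, of 1400 bp in late G1, 800 bp in S and 525 bp in G2/M, all within 4 kb of the window's lower end. The late G1 break lay between peaks of 100 bp that started at 27130001 and 27131501. In early G1 the window was uncovered up to 1.925 kb, which did not count as a break because no peak lay below it. HOXD had breaks of this length in S alone, 3 of them, at 177005051 to 177005800, 177009051 to 177009575 and 177049126 to 177050150. Their summed length followed another order than their number: 58.425, 33.35, 74.05 and 54.725 kb. S had the fewest breaks and the most open length, with a HOXB gap of 29.95 kb. With every gap counted, down to the 25 bp grid of the lists, the numbers were 44, 64, 55 and 60, and late G1 became the highest, which at 500 bp had only S below it, so the order of the counts rests on the gap length chosen.

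HOXB held 2 long peaks with a broken stretch between them. The first spanned 111.175, 111.475, 106.35 and 108.325 kb, from 46616726 to 46727900 in early G1, and was the second longest of its list in each fraction. The second, 43.475, 50.475, 24.5 and 43.825 kb, ran past the upper end of the window. The 64.025 kb between them, 46728201 to 46792225, carried 29, 50, 9 and 45 short peaks that covered 10.325, 31, 1.5 and 11.6 kb, or 16.1%, 48.4%, 2.34% and 18.1% of it. Coverage there was thus 3.0 times as long in late G1 as in early G1, 0.0484 times in S against late G1, and 7.73 times in G2/M against S. These peaks were low: the tallest stood at 77.9, 67.0, 19.7 and 57.6 in column 6, the authors' height value, against 354, 703, 509 and 478 for the long peak of the same fraction. Fraction order in the stretch, late G1 first and S last, was kept when only the higher-scored peaks, equal numbers of peaks or only peaks of 500 bp or more were used. In the RefSeq gene order, the widest spacing between neighbouring HOXB members lies between HOXB9 and HOXB13; the stretch was not placed on genes here, as no hg19 annotation was used.

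**Figure D3:**
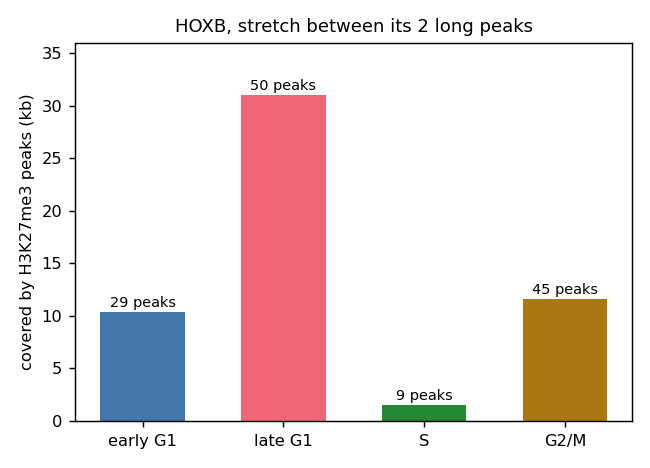
Length in kb covered by H3K27me3 peaks in the 64.025 kb between the 2 long HOXB peaks, 1 bar per fraction, with the number of peaks above it. Late G1 stands at 31 kb and S at 1.5 kb.

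Within that stretch 3 gaps of at least 2 kb were open in all fractions at once: 46747826 to 46751900 (4075 bp), 46764026 to 46766100 (2075 bp) and 46766276 to 46775800 (9525 bp). Across HOXB, 48 stretches were open in all fractions, against 1 in HOXA, 1 in HOXD and 0 in HOXC. Those in HOXB were 25 to 9525 bp long, and 31 of the 48 were under 500 bp, shorter than a break as counted above. Many were pieces of the same longer gap in some fractions, so they are not 48 separate breaks. The HOXA stretch was 50 bp and the HOXD stretch 175 bp long. Of the 61 merged H3K27me3 regions in the windows, 10 were listed in all fractions, 16.4% against a background of 18% of 36340 regions. Another 28 were listed in 1 fraction only, 23 of them in late G1. The share of all 36340 regions listed in 1 fraction only was not counted. The late G1 list held the most H3K27me3 peaks of the fractions, 31682, so these 28 are not read as a trait of the HOX windows. The count of regions is governed by the short HOXB pieces and says little of the length, since 84.7% of the windows was covered in every fraction.

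Column 6 was high in all clusters. The tallest H3K27me3 peak of HOXA stood at 412, 471, 417 and 334, that of HOXB at 354, 703, 509 and 478, that of HOXC at 325, 446, 231 and 276, and that of HOXD at 311, 604, 513 and 480. Late G1 was the highest of the 4 fractions in each cluster. No source used here gives the scale of the column, so the values were also divided by the median of their list over 6144 regions marked in all fractions (78.7, 65.6, 32.3 and 42.4). On that relative scale HOXA stood at 5.23, 7.17, 12.9 and 7.87, HOXB at 4.50, 10.7, 15.7 and 11.3, HOXC at 4.12, 6.80, 7.14 and 6.51, and HOXD at 3.95, 9.20, 15.9 and 11.3. S was then highest and early G1 lowest in each cluster, so the fraction with the tallest peak depended on the scaling. By the deposited score, HOXA, HOXB and HOXD turned from higher to lower between early and late G1. By its tallest peak, HOXC was below HOXB and HOXD in both scales from late G1 on, although it was the only cluster without a gap. By the mean weighted by length, HOXC was above HOXD in late G1 (446 against 368) and S (231 against 225). In G2/M it was below HOXD (276 against 306). HOXB stood above HOXC by this mean in late G1, S and G2/M, at 449, 419 and 365.

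The highest point of the domain lay at the same place in S and G2/M in all 4 clusters. In HOXA it was 95.788, 89.817, 79.667 and 79.667 kb from the lower end of the window, in HOXB 48.426, 40.983, 41.001 and 41.002 kb, in HOXC 110.744, 11.333, 18.876 and 18.897 kb, and in HOXD 34.009, 82.385, 82.398 and 82.4 kb. Counted as places within 100 bp of each other, S and G2/M shared it in 4 of 4 clusters, against 39.4% of the 1274 long regions. Late G1 shared it with S in 2 of 4 clusters (43.3% of the long regions) and with G2/M in 2 of 4 (35.8%). Early G1 shared it with late G1, S or G2/M in 0 of 4 clusters, where 19.6%, 19.9% and 19.1% of the long regions did. HOXB and HOXD were the clusters whose late G1 point matched. In HOXC and HOXD the early G1 point lay on the other side of the cluster. With 4 clusters and 1 library per fraction these counts describe the lists and no more.

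**Figure D4:**
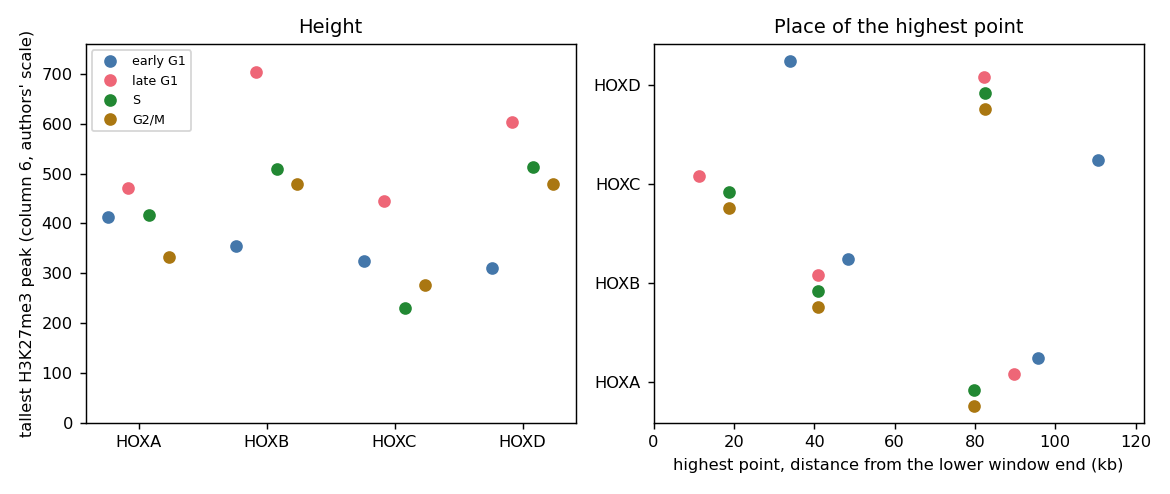
Left, column 6 of the tallest H3K27me3 peak in each HOX window, on the authors' scale; right, distance in kb of the domain's highest point from the lower end of the window. Colours are the 4 fractions; on the right the S and G2/M points stand at the same distance in each cluster.

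Listed H3K4me3 peaks were few in the windows. Its peaks covered 2.05, 1.65, 1.675 and 1.725 kb of the 561 kb, and 4 of the 12 peaks were of at least 1000 bp. These 4 were 1 region of HOXA, on the side of HOXA2 in gene order, at 27135276 to 27136700, 27135251 to 27136900, 27135176 to 27136625 and 27135226 to 27136500. Column 6 there was 107, 64.7, 48.6 and 51.5, which is the percentile 62.3, 67.6, 57.3 and 61.0 of the list, so the peak was of middling height. Divided by the median of regions listed in all fractions it stood at 0.797, 0.989, 0.632 and 0.681. Early G1 was thus highest as deposited and late G1 highest on the relative scale. It was the only 1 of 6 merged H3K4me3 regions in the windows that was listed in all fractions, against 47.7% of 32799 regions genome-wide.

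The other H3K4me3 peaks were 75 to 300 bp long. One at 27170501 to 27170800 in G2/M (column 6 of 38.7) was also listed in early G1 (22.6) and S (17) and not in late G1. Early G1 alone had peaks at 27183001 to 27183200 in HOXA (24.4), 54447376 to 54447500 in HOXC (18.3) and 177005426 to 177005600 in HOXD (23.1). The HOXD one fell where S had one of its H3K27me3 breaks. A gap under 500 bp, 177005276 to 177005700, spanned the same place in G2/M, and another, 177005476 to 177005750, overlapped it in late G1. G2/M alone had one in HOXB, 46696576 to 46696725 (17.3). Across the 9 HOXC genes, all under H3K27me3, the window thus had a listed H3K4me3 peak at 1 short place in 1 fraction.

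Every H3K4me3 peak of the windows lay wholly inside H3K27me3 peaks of its own fraction, 5 of 5, 1 of 1, 3 of 3 and 3 of 3. Over the whole lists 10.3%, 10.2%, 7.69% and 9.53% of H3K4me3 peaks did. The clusters are covered almost end to end, so little else was possible there. Read from the other side, H3K4me3 took 0.359%, 0.289%, 0.293% and 0.302% of the length of the 8 long HOX regions, and 3.29%, 2.98%, 2.78% and 2.98% of the 1266 others. Among regions of at least 20 kb the others held 1.26%, 1.76%, 1.51% and 1.47%, still above the 5 HOX regions at 0.387%, 0.311%, 0.316% and 0.325%. The HOX regions were still the longer ones at this cut, with a median of 111.7 kb against 26.475 kb. How length bears on these shares was not tested. By length, H3K4me3 thus took a smaller share of the HOX regions than of the others in all 4 fractions. By number of regions with an H3K4me3 peak this did not hold throughout: at 20 kb it was 3 of 5 in HOX against 35.1% of the others in early G1. The regions were merged over the fractions, so these shares do not measure overlap with H3K27me3 of the same fraction.

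H3K27ac had 0 peaks in the windows among 30168, 32521, 10268 and 19525 in the lists. Long H3K27me3 regions elsewhere seldom carried it either: 31, 58, 11 and 24 of 1266 did, against 0 of 8 in HOX, too few regions for a difference to be visible. H3K4me1 had 1, 0, 2 and 2 peaks of 75 to 250 bp. HOXA held 4 of the 5, all within 3 kb of its lower end and so at the edge of the H3K27me3 domain, at 27130751 to 27130875 in early G1 (column 6 of 21.3), 27132751 to 27133000 in S (18.5), and 27130451 to 27130525 and 27132126 to 27132300 in G2/M (12.6 and 17.8). The fifth was in HOXD in S, 176961026 to 176961175 (15.9). None of the 5 merged H3K4me1 regions was listed in all fractions, and over the genome 0.281% were. Where no peak was listed, a peak list cannot tell whether H3K4me3, H3K27ac or H3K4me1 was absent or below the peak threshold.

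The 4C libraries gave a second view of the clusters, all of which lie on other chromosomes than GATA6 and SOX17, genes of endoderm transcription factors. The windows held 127 restriction sites (33 in HOXA, 47 in HOXB, 21 in HOXC and 26 in HOXD). From the GATA6 viewpoint 41, 49, 49 and 16 of them had at least 1 read, or 32.3%, 38.6%, 38.6% and 12.6%, against 7.28%, 8.26%, 9.18% and 5.17% of all sites on other chromosomes. From SOX17 it was 44, 50, 52 and 16, or 34.6%, 39.4%, 40.9% and 12.6%, against 7.55%, 6.44%, 8.23% and 4.37%. The exact 95% intervals of the HOX shares, which cover counting error only and treat sites as independent, ran from 24.3% to 41.2% in early G1 and from 7.38% to 19.7% in G2/M for GATA6. HOX sites were therefore seen more often than the average site in all 8 libraries. The G2/M libraries gave the lowest shares. They held the most reads in all, 17076409 for GATA6 and 15566252 for SOX17, against 7491195 to 13936585 in the others. On other chromosomes, where the HOX sites lie, the reads were 3946977, 3730317, 2083169 and 3689836 from GATA6. From SOX17 they were 2228828, 2190018, 1220582 and 2281998. How read depth bears on the shares was not tested. The 4C reads came from PCR with no molecular identifier, so read numbers are not numbers of contacts.

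A pair of other site sets was also above the average site in all 8 libraries. Sites in the other long H3K27me3 regions had a read in 21%, 26.2%, 27.2% and 13.9% of cases from GATA6 and in 19.4%, 18.4%, 23.0% and 9.67% from SOX17. Sites within 200 kb on either side of the windows had one in 16.2%, 17.3%, 18.6% and 8.20%, and in 15.5%, 14.2%, 18.8% and 6.43%. The HOX shares were above both sets in the G1 fractions and S from both viewpoints, with intervals that did not overlap. In G2/M they were 12.6% beside 13.9% and 9.67% in the other long regions, differences within the interval. A read in every fraction was found at 12 HOX sites from GATA6 (9.45%, against 2.5% of sites on other chromosomes) and at 9 from SOX17 (7.09%, against 2.05%).

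By cluster, the viewpoints gave different counts at HOXD. From GATA6, 1, 2, 2 and 0 of its 26 sites had a read, with 3, 9, 4 and 0 reads in all. Taking 3 counts as the limit, 0 of 26 allows a share of up to 11.5%, and the exact 95% interval reaches 13.2%. From SOX17, 6, 10, 9 and 3 of the same sites had one, with 116, 980, 213 and 327 reads. HOXC had 8, 14, 12 and 6 of 21 sites from GATA6 and 10, 8, 9 and 3 from SOX17, with overlapping intervals in late G1 (43.0% to 85.4% and 18.1% to 61.6%). HOXB had 20, 21, 23 and 8 of 47 sites from GATA6 and 14, 19, 18 and 6 from SOX17, and HOXA 12, 12, 12 and 2 of 33 and 14, 13, 16 and 4. The exact 95% intervals at HOXD were 0.946% to 25.1% for GATA6 and 20.2% to 59.4% for SOX17 in late G1, which overlap.

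**Figure D5:**
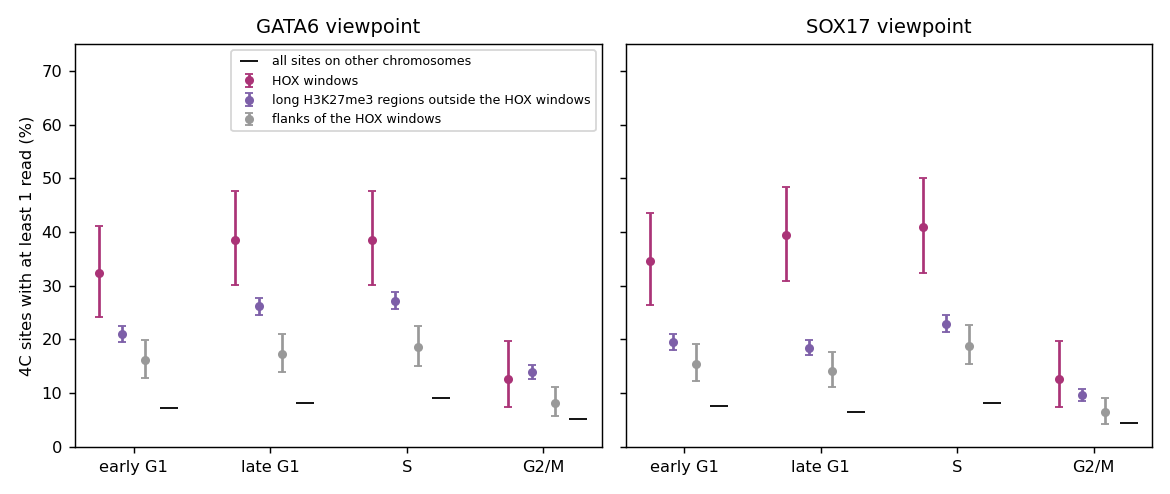
Percent of 4C sites with at least 1 read by fraction, for the GATA6 viewpoint (left) and the SOX17 viewpoint (right); points are HOX windows, other long H3K27me3 regions and 200 kb flanks with exact 95% binomial intervals, and black dashes are all sites on other chromosomes. HOX points lie highest in early G1, in late G1 and in S, and fall to 12.6% in G2/M for both viewpoints.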

How the data were processed

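The authors deposited 16 peak lists, 1 per histone mark and fraction, and a 4C table; the inputs were not analysed here. Per the submitters' processing notes, the tools included Bowtie, version 0.12.7, and hg19 and mm9 were listed as builds, with no role given for any of them; coordinates were read as hg19. The program that called peaks, its settings and the assignment of reads to sites are steps not given in the sources used here. In the deposited lists, column 6 is a signal value used as peak height, column 7 a negative score and column 5 another number, read from the values as the offset of the highest point. Heights of 0, listed on chromosomes above 21, were treated as missing. The deposited 4C table gives counts, whole-number reads per HindIII site (NlaIII was the second enzyme, per the labels' protocols). Depth per ChIP library is unknown; 4C libraries held 7491195 to 17076409 reads.

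Groups came from the labels. Peaks were clipped to the windows, and covered length, gaps, heights and merged regions were computed with Python 3.11.15, numpy 2.4.6, pandas 2.3.3 and scipy 1.17.1; figures used matplotlib 3.10.9. Interval functions were tested on simulated data. No p-value was computed. Regions named were each cluster's longest peak, shared breaks of at least 2 kb, and the H3K4me3 and H3K4me1 peaks. Members and lists were chosen with earlier results of these data known. Alternatives were stricter or equal-sized lists, peaks of at least 500 bp, other gap lengths, shortened windows, other height scales and sites counted once.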

Additional observations from a re-analysis of the deposited data

How the results depend on the processing

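Covered H3K27me3 length over the clusters stayed within 1.5 times of the reported value under all alternatives run, except that with peaks wholly inside a window it was 310.5 kb in late G1, below the 329.55 kb of S, so that the order of these fractions turned. That setting drops the HOXC peak in all fractions and, in late G1, also a HOXD peak of 51275 bp that crosses the window's end. With windows shortened by 10 kb at both ends, H3K4me3, and its overlap with H3K27me3, covered 0.5, 0, 0.15 and 0.45 kb in the fractions from early G1 to G2/M, because the HOXA region lies outside, and H3K4me1 covered 0, 0.15 and 0 kb in early G1, S and G2/M. H3K4me1 fell to 0 kb with peaks of at least 500 bp in these 3 fractions and in early G1 with the upper 50% by score, and was 0.25 kb in S with equal numbers of peaks. Breaks numbered 44, 64, 55 and 60 with any gap counted, 10, 9, 8 and 15 at 1000 bp, and 6, 5, 4 and 8 at 2000 bp; with the upper 50% by score they were 9 in early G1, 6 in S and 17 in G2/M. Between the long HOXB peaks, alternatives chosen after seeing the data gave 6.075, 0 and 6.425 kb in early G1, S and G2/M (upper 50% by score) and 4.45, 0 and 3.225 kb (peaks of at least 500 bp). The H3K4me3 share of other long regions moved to 1.26%, 1.76%, 1.51% and 1.47% at 20 kb.

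Height ratios turned with the scale. The log2 ratio of late to early G1 for H3K27me3 became -0.031 (mean weighted by length), -0.0044 (percentile) and -0.094 (score) in HOXA, -0.12 (score) in HOXB and -0.75 (score) in HOXD. That of S to late G1, relative to the list's median, became 0.85, 0.56, 0.072 and 0.79 in HOXA, HOXB, HOXC and HOXD, and by percentile 0.00039 in HOXA and 0.00039 in HOXD. For H3K4me3 in HOXA, late over early G1 became 0.31 relative to the median and 0.12 by percentile. The cause was not tested.

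4C reads in the windows per 1000000 reads on other chromosomes were 977, 985, 616 and 628 from GATA6 and 1351, 1544, 764 and 765 from SOX17. Without the site with the most reads they were 842, 883, 523 and 485, and 1099, 1212, 642 and 442. With sites counted once, the value was HOX sites with a read per 1000000 sites with a read on other chromosomes. GATA6 then gave 691, 728, 655 and 379. SOX17 gave 734, 977, 796 and 460, with S then above early G1. Of all sites on other chromosomes, with or without a read, the HOX windows held 156 per 1000000 for GATA6 and 160 for SOX17. The promoter comparison planned for members was not run, as no hg19 annotation was used here. No paired analysis was possible because each group held 1 library and the labels carry no replicate numbers. With 1 library per group, no library could be left out.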
